A study of Mus musculus with 6 samples.

Results

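The removal of leukemia inhibitory factor (LIF) from wild type E14 cells was described from 2 of the 6 libraries of the series, 1 of wild type cells kept in LIF and 1 of wild type cells grown for 4 days without it. The genes described are those whose FPKM (fragment count scaled to transcript length and sequencing depth) averaged at least 5 over these 2 libraries, which holds for 8630 of the 25170 gene symbols in the deposited table. The study asked how loss of Hnrnpf, an hnRNP that binds G-rich RNA, affects mouse embryonic stem cells (ESCs) while pluripotent and while differentiating. Its other 4 libraries come from E14 cells with an Hnrnpf knockout, numbered 1 and 2 in each of the same media. All cells were grown in DMEM with fetal bovine serum, and LIF was present at 1000 units/mL in the growth medium that the labels describe. E14 is an established mouse ESC line. The labels do not say whether libraries of a group come from separate cultures, whether the knockouts are separate clones, or whether a knockout number marks the same cells in both media.

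LIF is a cytokine of the interleukin 6 family that binds the receptor pair Lifr and Il6st and, through Janus kinases, activates the transcription factor Stat3. In mouse ESCs this signal supports naive pluripotency, the state of the preimplantation epiblast, whose network includes Esrrb, Klf2, Klf4, Tbx3 and Tfcp2l1. Without LIF in serum, ESCs leave that state and pass towards the formative and primed states of the postimplantation epiblast, which are marked by Fgf5, Otx2, Pou3f1 and the de novo DNA methyltransferases, before they enter the germ layers.

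The wild type comparison sets 1 library against 1. It therefore has no replicate error and no test, and differences are given by size on the scale of log2(FPKM + 1), which understates the change of genes with low values. Summed FPKM ranged from 456155 to 556318 over the 6 libraries, and the number of reads behind a value is unknown. Hnrnpf stood at 342 FPKM in LIF-grown wild type cells and 335 after its removal, against 98.7 and 37.1 in knockouts 1 and 2 with LIF and 95.2 and 27.8 after its removal. Gapdh, a gene with many pseudogenes, was listed at only 2.58 and 1.74 FPKM in the wild type libraries beside Actb at 1133 and 1468, so levels of genes with near copies are uncertain. Both wild type libraries carried the defining transcripts of ESCs. Pou5f1, the POU factor at the centre of pluripotency, stood at 1145 FPKM with LIF and 960.0 without, and all 12 core and all 22 naive pluripotency genes listed lay above 0.1 FPKM in both libraries. Markers of fibroblasts, the usual feeder cells, summed to 4.26 FPKM with LIF and 7.51 without over 10 genes, with Lum at 0 in both and 6 and 4 of them at or under 0.1 FPKM.

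Across the 8630 genes, 187 (2.17%) were higher after LIF removal by a log2 difference of at least 1, which is 2-fold on FPKM + 1, and 346 (4.01%) were lower by as much. Together these are 533 genes (6.18%). The larger differences were more often increases, with 44 genes higher and 28 lower by a log2 of at least 2, and 9 higher and 2 lower by at least 3. The median difference was -0.06, and 3647 genes lay above 0 and 4983 below. Under quantile normalization the median was 0.03, and 215 genes were higher and 280 lower by a log2 of at least 1. A gene under 5 FPKM in 1 wild type library reached the mean through the other, which fixes the sign of its difference. This holds for 94 of the 187 higher genes and 105 of the 346 lower genes. For scale, the knockout libraries of one medium, 1 and 2, differed past the same size in 80 genes (0.927%) with LIF and 76 genes (0.881%) without, and the SD of the differences over genes was 0.53 in wild type cells against 0.32 for both of those pairs. Just inside the size limit lay Hscb, at a log2 difference of -1.00117, and just outside it Selenoh, at -0.999644. At the limit on the mean, Ap1s3 (2.05 FPKM with LIF, 7.96 without) was just inside and Lactb (5.72 and 4.28) just outside.

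**Figure D1:**
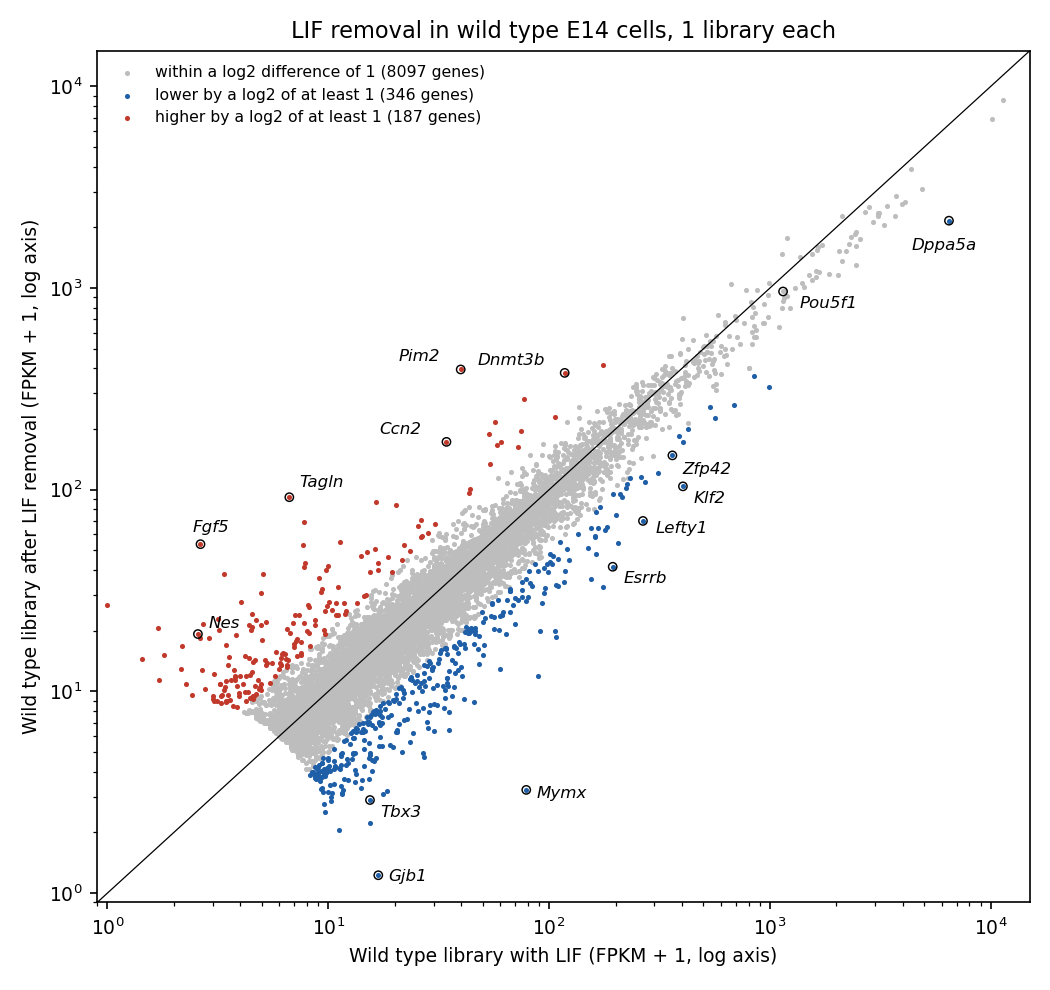
Each point is 1 of 8630 genes, with FPKM + 1 of LIF-grown wild type cells on the x axis and after LIF removal on the y axis, both on log axes; red and blue mark genes higher and lower by a log2 difference of at least 1. Fgf5 and Tagln lie far above the diagonal, Mymx and Gjb1 far below it, and Pou5f1 close to it.

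The 4 knockout libraries underwent the same change of medium and share no library with the wild type comparison. There, limma (adjusted p under 0.05, a fit of all 4 groups over 11785 genes) called 220 of the 8630 genes higher (2.55%) and 381 lower (4.41%). These p-values measure the spread between libraries, which may be technical, and the spread comes from the knockout libraries. The calls depend on single libraries, and each count below without 1 knockout library comes from a fit with fewer calls over all genes. Over all 11785 genes there were 816, and 138 without knockout 1 with LIF, 539 without knockout 2 with LIF, 440 without knockout 1 after LIF removal and 124 without knockout 2 after LIF removal. The difference between the wild type and the knockout response, tested in the same fit, passed the threshold for 0 of 11785 genes (0%), with 340 (2.89%) at an unadjusted p under 0.05, and for 0 without limma's trend, with 421 at that p. No gene below is therefore called particular to wild type cells. Of the genes whose called knockout differences are printed, Fgf5, Ccn2, Mymx, Lefty2, Krt19 and B2m kept the call when any 1 knockout library was left out, and Pou5f1, Icam1, Pim3 and Dnmt3a lost it each time. The others lost it at least without knockout 1 with LIF and without knockout 2 after LIF removal.

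Naive pluripotency genes were lower after LIF removal. Of the 22 listed, 21 averaged at least 5 FPKM, and 16 of these were lower by a log2 of at least 1 and none higher by as much, with a median of -1.43 against -0.06 over all genes. Quantile normalization left 13 lower. Klf4, Tbx3, Tet2, Gbx2 and Sox15 were under 5 FPKM without LIF and so reached the mean through the library with LIF, which fixed their direction, and 4 of these are among the 16. Tbx3, a T-box factor of the naive network, went from 14.5 FPKM with LIF to 1.90 without (log2 difference -2.42). Nr0b1, an orphan nuclear receptor that represses transcription, had 106 and 18.9 FPKM (-2.42). Esrrb (chromosome 12, 86361117 to 86521628), an orphan nuclear receptor that sustains self-renewal, had 193 and 40.5 FPKM (-2.23). All of these belong to the factors that hold the naive state. Tcl1, a cofactor of Akt kinase, had 90.1 and 18.9 FPKM (-2.19). The Krüppel-like factors differed among themselves. Klf2 was at 403 and 103 FPKM (-1.96) and Klf4 at 13.2 and 2.65 (-1.96), whereas Klf5 was at 76.3 and 49.5 (-0.61), within the size limit. Tfcp2l1, a transcription factor downstream of Stat3, had 35.99 and 9.58 FPKM (-1.81). Nanog, a homeobox factor that both naive and later epiblast cells use, had 229.7 and 126 FPKM (-0.86) and was also within the limit.

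Among the abundant naive genes, Dppa5a, an RNA-binding KH-domain protein, had the highest level of the list, 6460.5 FPKM with LIF and 2155 without (-1.58). Zfp42, a zinc finger protein also called Rex1, had 361 and 147 FPKM (-1.29). Both were thus lower without LIF but still abundant. Prdm14, a regulator of DNA methylation in ESCs, was the list member under the mean of 5, with 6.91 and 1.63 FPKM.

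Limma called 9 of the same 21 naive genes lower and none higher after LIF removal from the knockout cells. Of all 8630 genes it called 4.41% lower. The count of naive genes was 6 without knockout 1 with LIF and 4 without knockout 2 after LIF removal. Esrrb was at 145 and 104 FPKM with LIF and 52.7 and 33.1 without, and it fell (limma log2 difference -1.54, SE 0.25, adjusted p = 0.0255). Klf4 was at 11.8 and 15.9 FPKM with LIF and 6.21 and 10.5 without, and Tbx3 at 11.3 and 11.6 with LIF and 4.58 and 8.05 without. In both, the 2 groups of knockout libraries did not overlap, as held for 34.7% of all 8630 genes in this direction. Limma called neither (adjusted p = 0.153 and 0.100). The wild type difference was larger than the knockout one for Tbx3 by 1.61 in size (difference of responses -1.61, SE 0.44, limma unadjusted p = 0.00844), which did not pass the adjusted threshold.

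Core pluripotency genes, which both the naive and the later epiblast express, lay closer to their level with LIF. All 12 listed averaged at least 5 FPKM, 10 of them lay within the size limit, and 9 were lower and 3 higher. The median difference was -0.24, or -0.07 under quantile normalization. Lin28a, an RNA-binding protein that blocks let-7 maturation, was at 195 FPKM with LIF and 244 without, and Sall4, a zinc finger factor that partners Pou5f1, at 90.3 and 78.9. The exceptions were Sox2, the partner of Pou5f1 on DNA, at 385 and 183 FPKM (-1.06), and Fgf4, the FGF ligand made by the epiblast and a target of that pair, at 108 and 44.2 (-1.27). Limma called both lower in the knockout cells, with Sox2 at -0.88 (SE 0.14, adjusted p = 0.0251) and Fgf4 at -1.20 (SE 0.19, adjusted p = 0.0249). Pou5f1, with a wild type difference of -0.25, was also called lower there (-0.70, SE 0.12, adjusted p = 0.0303). Utf1, at 673 FPKM with LIF and 496 without in wild type cells (-0.44), was called lower there too. Limma thus called 4 of the 12 core genes lower in the knockout cells and none higher. Of all 8630 genes it called 4.41% lower.

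The genes of the LIF pathway itself differed less than the naive genes. Of 16 listed, 13 averaged at least 5 FPKM, 2 were lower by a log2 of at least 1 and none higher, with a median of -0.67. At the receptor, Lifr was at 8.45 FPKM with LIF and 4.03 without (-0.91), and its partner Il6st at 24.7 and 15.2 (-0.67). Of the kinases at the mean, Jak1 was at 14.8 and 13.4 FPKM (-0.14) and Tyk2 at 10.2 and 5.22 (-0.85). Stat3 itself was at 8.53 and 6.78 (-0.29). These receptor chains, kinases and Stat3 were thus lower after LIF removal by less than the size limit, whereas the kinase Jak2, under the mean, was higher at 2.34 and 3.59 (0.46). Among genes known as Stat3 targets, Icam1 (chromosome 9, 21015940 to 21028814), a cell adhesion molecule, was at 21.8 and 6.29 FPKM (-1.64), and Bcl3, a nuclear IkappaB protein, at 7.996 and 2.96 (-1.18). The serine-threonine kinase Pim1 was at 117 and 59.04 FPKM (-0.98), just within the limit. Socs3, the feedback inhibitor of the LIF receptor, had a mean under 5, with 3.59 and 3.21 FPKM. Junb and Ier3 of the same list were higher within the limit, at 15.2 and 22.3 FPKM (0.52) and 9.13 and 15.8 (0.73). Of all 16 genes listed, 5 were higher and 11 lower. Lifr and Bcl3 were under 5 FPKM without LIF, which fixed their direction. Limma called Icam1 (-0.89, SE 0.19, adjusted p = 0.0405) and Pim3 (-0.66, SE 0.14, adjusted p = 0.0425) lower in the knockout cells. Neither call held when any 1 of the 4 knockout libraries was left out.

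Because Stat3 binds the palindrome TTCNNNGAA, the 250 bases before each RefSeq promoter start (GRCm38.p6) were searched for it. It reads the same on both strands, so 1 pass covers both. The motif was in 473 of the 6979 genes that averaged at least 5 FPKM and had a window (6.78%), in 14 of the 266 genes lower by a log2 of at least 1 that had one (5.26%), in 2 of 15 LIF pathway genes and in 1 of 14 naive genes. The windows of Icam1 (chr9:21015690-21015939, plus strand), Esrrb (chr12:86360867-86361116, plus strand, 1 of 2 windows of the gene) and Socs3 (chr11:117969367-117969616, minus strand) are shown 5′ to 3′ with the motif in capitals, since they hold a match beside different wild type values. The match starts 42, 178 and 154 bases before the promoter start, in that order. A promoter start can differ from the outer end of the gene position. The Socs3 window lies inside the gene position of Socs3 (chromosome 11, 117966079 to 117970336) and not before it.
Icam1: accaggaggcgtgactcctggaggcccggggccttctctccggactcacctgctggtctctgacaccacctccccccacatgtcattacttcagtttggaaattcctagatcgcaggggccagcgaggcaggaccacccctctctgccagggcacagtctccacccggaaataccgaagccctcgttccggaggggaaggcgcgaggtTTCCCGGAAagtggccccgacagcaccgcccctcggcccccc
Esrrb: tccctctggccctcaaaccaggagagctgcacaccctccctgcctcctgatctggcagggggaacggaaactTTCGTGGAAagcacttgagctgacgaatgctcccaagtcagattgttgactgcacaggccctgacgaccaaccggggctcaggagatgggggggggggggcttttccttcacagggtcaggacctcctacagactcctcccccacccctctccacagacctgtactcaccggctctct
Socs3: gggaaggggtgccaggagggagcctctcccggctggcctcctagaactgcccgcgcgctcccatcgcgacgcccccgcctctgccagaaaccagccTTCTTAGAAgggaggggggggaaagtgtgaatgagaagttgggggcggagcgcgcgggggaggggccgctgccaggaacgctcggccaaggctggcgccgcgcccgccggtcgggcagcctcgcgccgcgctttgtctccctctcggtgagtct
Icam1 and Esrrb were lower after LIF removal by more than the size limit. Socs3, whose window lies inside its gene position, was nearly level, so a match in these windows went with both outcomes. Among the 15 genes with the largest decreases, Krt42 alone of the 11 with a window held the motif, 18 bases before its start. A match describes the letters and shows no binding.

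Genes of the formative and primed epiblast were higher. Of 20 listed, 17 averaged at least 5 FPKM, and 7 of these were higher by a log2 of at least 1 and none lower, with a median of 0.72. A member that reached this mean through the library without LIF had to be higher there, as is so for Fgf5, Sall2 and Sox3. Fgf5 (chromosome 5, 98254184 to 98277033), the FGF ligand that marks the postimplantation epiblast, stood at 1.64 FPKM with LIF and 52.7 without (4.35), the largest increase of any named gene. The knockout libraries had 2.29 and 5.58 FPKM with LIF and 31.1 and 53.5 without (limma difference 3.17, SE 0.37, adjusted p = 0.0166). Both genotypes thus had low Fgf5 in every library with LIF and high Fgf5 in every library without it.

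The transcription factors of this list differed in size. Pou3f1, a POU factor of the epiblast and neural plate, was at 15.5 and 86.1 FPKM (2.40). Sox3, a SoxB1 factor, was at 3.54 and 19.97 (2.21), and Lef1, a nuclear effector of Wnt signalling, at 7.18 and 25.4 (1.69). Otx2, which directs the exit from the naive state, was at 40.5 and 78.8 (0.94), just under the size limit. Tcf15, a helix-loop-helix factor linked to priming, was lower at 98.9 and 71.5 (-0.46). Pim2, a serine-threonine kinase, was at 38.8 FPKM with LIF and 394 without (3.31). In knockout cells it stood at 113 and 238 FPKM with LIF, above the wild type library, and 322 and 406 without (limma difference 1.14, SE 0.33, adjusted p = 0.0836). The difference of responses for Pim2 was 2.17 (SE 0.56, limma unadjusted p = 0.00682), which did not pass after adjustment.

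The methyltransferases and demethylases of DNA separated by enzyme. Dnmt3b, a de novo methyltransferase, was at 117 FPKM with LIF and 379 without (1.69). Dnmt3a was at 17.5 and 21.2 (0.27), their cofactor Dnmt3l at 134 and 180.4 (0.42), and the maintenance enzyme Dnmt1 at 88.1 and 69.6 (-0.34). Of the demethylases that oxidize methylcytosine, both at the mean were lower, Tet2 at 12.00 and 3.92 (-1.40) and Tet1 at 37.3 and 18.2 (-0.99), of which Tet1 was within the size limit. Tet3, under the mean, was at 0.954 and 1.18 (0.16). Of 9 genes listed, 7 averaged at least 5 FPKM, 1 was higher by a log2 of at least 1 and 1 lower. In the knockout cells Dnmt3b was at 174 and 211 FPKM with LIF and 236 and 275 without, and limma did not call it (0.41, SE 0.15, adjusted p = 0.132). Its difference of responses was 1.28 (SE 0.26, limma unadjusted p = 0.00176), also without passing the adjusted threshold. Across the whole epiblast list limma called 3 of the 17 genes higher (Fgf5, Lef1 and Sall2) and 2 lower (Dnmt3a and Tcf15) in the knockout cells. The shares over all 8630 genes were 2.55% and 4.41%. When knockout 1 with LIF was left out, 1 gene was called higher and 0 lower, and the counts were the same without knockout 2 after LIF removal. The count called lower was 1 when either of the other 2 knockout libraries was left out.

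Genes of the actin cytoskeleton and of matricellular proteins, many of them known targets of the serum response factor (SRF) or of the coactivator YAP, were higher. Of 23 listed, 17 averaged at least 5 FPKM. Of these, 11 were higher by a log2 of at least 1 and none lower, with a median of 1.52, the furthest from 0 among the lists with at least 5 members at that mean. The actin-binding protein Tagln (chromosome 9, 45929628 to 45936058) was at 5.67 FPKM with LIF and 90.8 without (3.78). The myosin light chain Myl9 was at 3.04 and 26.7 (2.78), and the calponin Cnn1 at 1.15 and 11.9 (2.59). These are proteins of contractile filaments, best known from smooth muscle, and Myl9 and Cnn1, like Thbs1 below, reached the mean through the library without LIF. Tropomyosins, which coat actin filaments, were higher from a larger base, with Tpm1 at 75.9 and 281 FPKM (1.87) and Tpm4 at 59.4 and 172 (1.52). At focal adhesions, Zyx was at 6.71 and 51.99 FPKM (2.78) and Vcl, vinculin, at 31.8 and 57.4 (0.83), within the size limit. Smooth muscle actins were under 1 FPKM: Acta2 stood at 0.131 and 0.744 FPKM and Actg2 was listed at 0 in both libraries.

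The secreted matricellular proteins were among the largest increases. Ccn1 was at 6.76 FPKM with LIF and 68.1 without (3.15), Ccn2 at 33.3 and 172 (2.33), and thrombospondin 1, Thbs1, at 0.805 and 14.2 (3.07). Amotl2, an angiomotin that binds YAP, was at 24.5 and 65.2 (1.38), while Ankrd1, also known as a YAP target, stayed under 1 FPKM in both libraries. Limma called 10 of the 17 genes higher and none lower in the knockout cells, against 2.55% of all 8630 genes called higher. The count was 5 without knockout 1 with LIF and 5 without knockout 2 after LIF removal. Tagln was at 2.32 and 12.96 FPKM with LIF and 45.2 and 125 without (limma difference 3.48, SE 0.70, adjusted p = 0.0386). Ccn2 was at 40.04 and 57.6 with LIF and 211 and 165 without (1.94, SE 0.21, limma adjusted p = 0.0166). For both genes every library without LIF, of either genotype, lay above every library with it. Fibroblasts also express many of these genes. Of the 10 fibroblast markers, 7 were higher and 2 lower without LIF, and all 10 stayed under 5 FPKM. Thy1, the most abundant, was at 3.16 and 4.76 FPKM, Fbn1 at 0.147 and 0.774, and the collagens Col1a1 at 0.106 and 0.575 and Col1a2 at 0.0302 and 0.0896. Their part in the result was not tested.

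The CArG box, the SRF motif, was searched in the same windows on both strands. It was in 104 of the 6979 genes that averaged at least 5 FPKM and had a window (1.49%). Of the genes higher by a log2 of at least 1 that had a window, 6 of 147 held the box (4.08%). None of the 10 genes with a window among the 15 largest increases held it. In the actin list 3 of 18 genes did. That list was drawn up to hold known SRF and YAP targets, so its share is no test. The windows of Cnn2 (chr10:79988350-79988599, plus strand) and Myl9 (chr2:156775214-156775463, plus strand), the list members that held the box and were higher past the size limit, are shown 5′ to 3′ with the box in capitals. The box starts 56 bases before the start of Cnn2 and 161 before that of Myl9.
Cnn2: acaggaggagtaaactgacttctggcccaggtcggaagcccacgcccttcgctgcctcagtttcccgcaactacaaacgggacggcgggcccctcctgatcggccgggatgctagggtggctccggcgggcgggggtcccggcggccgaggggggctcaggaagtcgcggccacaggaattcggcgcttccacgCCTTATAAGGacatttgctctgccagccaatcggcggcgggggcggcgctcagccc
Myl9: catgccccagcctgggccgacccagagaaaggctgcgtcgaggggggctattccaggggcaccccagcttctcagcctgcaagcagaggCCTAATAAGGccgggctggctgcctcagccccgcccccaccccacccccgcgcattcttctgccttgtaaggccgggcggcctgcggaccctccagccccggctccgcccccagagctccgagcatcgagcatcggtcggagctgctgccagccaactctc
Cnn2, a calponin, was at 43.01 FPKM with LIF and 99.7 without (1.19). The window of Vcl also held a box, 227 bases before its start. Where no box was found, only these letters are absent from this window.

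The 15 largest increases and the 15 largest decreases, unnamed gene models and ribosomal, mitochondrial and small RNA genes aside, held genes outside these lists as well. Among secreted factors, follistatin, Fst, which binds and blocks activin, was at 0.692 FPKM with LIF and 19.6 without (3.61). Fgfbp1, a carrier of FGF ligands, was at 4.06 and 37.2 (2.92), and Enpp2, the enzyme autotaxin, at 1.72 and 20.6 (2.99). These 3 genes thus act on extracellular signals. At the membrane, the semaphorin Sema6a was at 0.440 and 13.5 FPKM (3.33), the potassium channel Kcnj3 at 2.17 and 21.8 (2.85), and the metal importer Slc39a8 at 1.64 and 17.4 (2.80). Fndc3c1, an X-linked gene, was at 1.17 and 15.8 (2.95). The unnamed model Gm51018 was listed at 0 FPKM with LIF and at 25.8 without, and no fold was taken.

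The largest decrease was that of Mymx (chromosome 17, 45600961 to 45602196), which encodes a small membrane protein of myoblast fusion, from 77.8 FPKM with LIF to 2.25 without (-4.60). In the knockout cells Mymx was at 30.2 and 30.3 FPKM with LIF and 3.54 and 4.66 without, and it fell by 2.62 (SE 0.17, limma adjusted p = 0.0111). Its level with LIF was thus higher in the wild type library than in either knockout library, while without LIF all 3 libraries were under 5 FPKM. Gjb1, the gap junction protein connexin 32, was at 15.9 and 0.228 FPKM (-3.78), Septin1, a GTP-binding cytoskeletal protein, at 88.4 and 10.9 (-2.91), and Pltp, a phospholipid transfer protein, at 107 and 17.7 (-2.53). Nphs1, nephrin of the kidney slit diaphragm, was at 26.2 and 3.76 (-2.52) and the keratin Krt42 at 16.6 and 2.10 (-2.51). Several of these genes are thus best known from differentiated tissues, though they were expressed here with LIF. Txnip, which binds thioredoxin and limits glucose uptake, was at 175 and 31.97 FPKM (-2.42). Polr3gl, a subunit of RNA polymerase III, was at 17.6 and 2.22 (-2.53). Dlgap3, Rhox5, Tmem191c and Ly75 were also among the 15, with differences between -2.45 and -2.24. The X-linked homeobox gene Rhox5 varied between the knockouts, at 9.91 and 60.02 FPKM with LIF and 2.60 and 23.9 without, with overlapping groups.

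**Figure D2:**
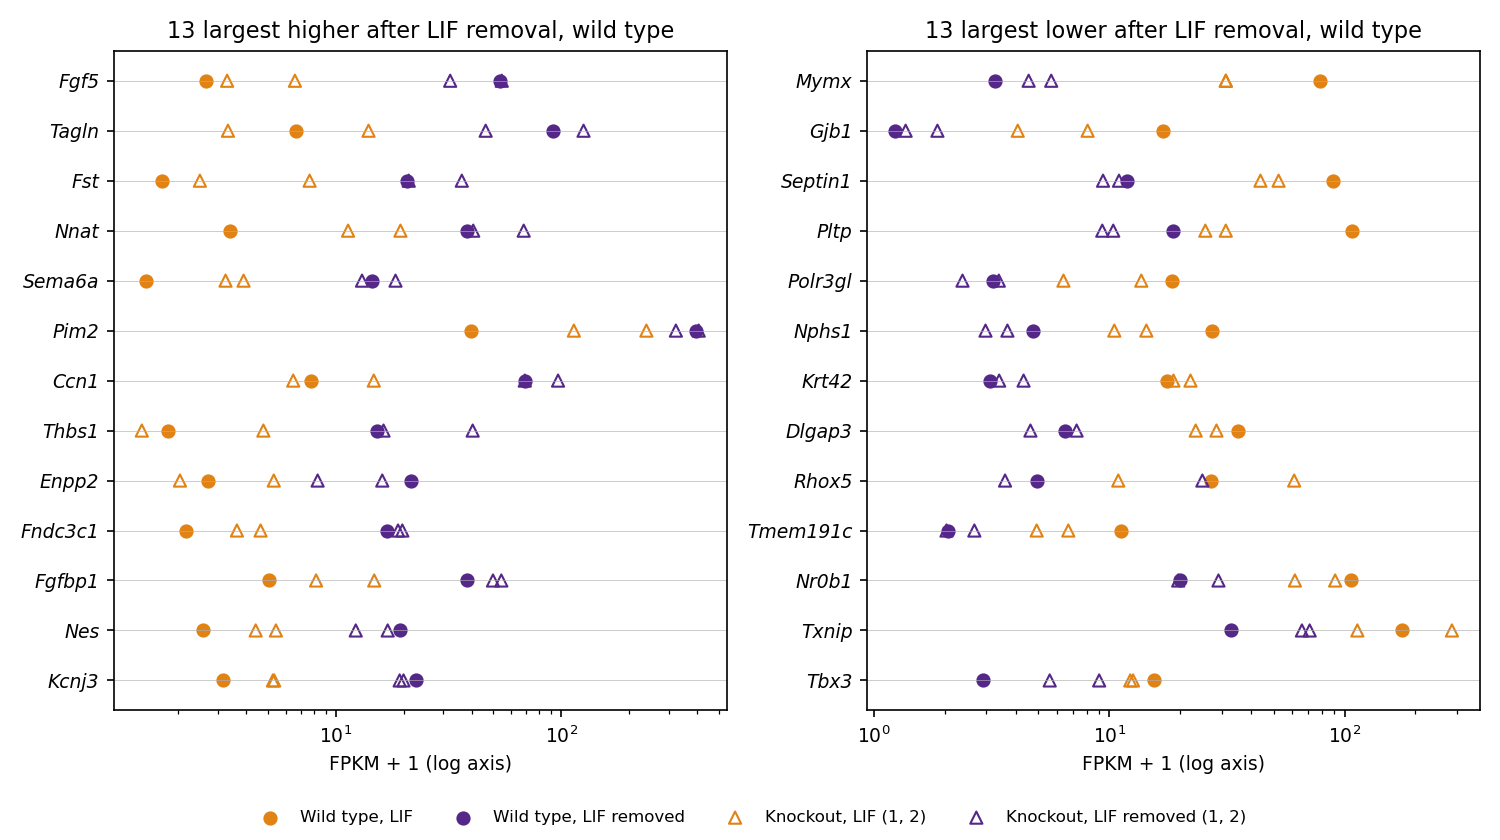
FPKM + 1 on a log axis for the 13 largest increases (left) and decreases (right) in wild type cells; filled circles are the wild type libraries, open triangles the 2 knockout libraries of each medium, orange with LIF and purple without. In the right panel the orange and purple triangles of Rhox5 overlap, while those of Mymx lie apart.

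Of the 15 largest increases, limma called 13 higher in the knockout cells, all but Pim2 (adjusted p = 0.0836) and Enpp2 (adjusted p = 0.0743), and 11 of the 15 largest decreases were called lower, all but Rhox5, Txnip, Tbx3 and Ly75. Without knockout 2 after LIF removal the counts were 8 and 7, and without knockout 1 with LIF 9 and 9. Without knockout 1 after LIF removal they were 13 and 8. Over all 8630 genes, with every library, 2.55% were called higher and 4.41% lower.

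The signalling pathways that pattern the epiblast showed a few large differences each. In the Nodal pathway, which is active in serum cultures, 15 of 19 genes averaged at least 5 FPKM. The feedback inhibitors of Nodal were lower, Lefty1 at 265 FPKM with LIF and 69.04 without (-1.93) and Lefty2 at 154 and 35.1 (-2.10), while the ligand Nodal was at 45.8 and 36.6 (-0.32). The activin antagonist Fst, given above, was the 1 gene of the pathway that was higher past the size limit. Its direction was fixed, since it reached the mean through the library without LIF. The coreceptor Tdgf1 and the effectors Smad2, Smad3 and Smad4 were within the limit, with differences between -0.18 and 0.51. Limma called Lefty2 lower in the knockout cells (-1.51, SE 0.17, adjusted p = 0.0166) and did not call Lefty1 (-0.78, SE 0.31, adjusted p = 0.164).

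Of 17 genes of BMP signalling, 7 averaged at least 5 FPKM. The ligand Bmp4 was at 8.63 FPKM with LIF and 2.80 without (-1.34), whereas 3 of the Id genes, its inhibitory helix-loop-helix targets, were higher, with Id1 at 66.6 and 121 (0.85), Id2 at 35.8 and 58.1 (0.68) and Id3 at 18.4 and 38.1 (1.01). Of these Id3 passed the size limit narrowly. Bmp4 was under 5 FPKM without LIF, which fixed its direction. Under the mean, other targets went both ways. Id4 was at 1.77 and 1.42 FPKM (-0.19), the inhibitor Smad6 at 4.93 and 2.01 (-0.98) and the homeobox gene Msx2 at 2.08 and 0.986 (-0.63). Its paralog Msx1 was higher at 0.456 and 1.24 (0.62), as was Bambi at 1.96 and 2.17 (0.10). Of all 17 genes listed, 11 were higher and 6 lower. The known targets of BMP signalling thus showed no single direction. In the Wnt pathway 9 of 18 genes averaged at least 5 FPKM, and 17 of the 18 were higher without LIF. Lef1, given above, was the 1 gene higher past the size limit. Under the mean, Wnt8a was at 0.732 and 6.13 FPKM, Wnt3 at 0.106 and 2.95 and Sp5 at 0 and 1.92. The secreted inhibitor Notum was the 1 lower gene, at 16.1 and 4.95 FPKM (-1.53), and the feedback gene Axin2 was at 3.23 and 6.85 (0.89). Axin2 and Notum were each under 5 FPKM in 1 library, which fixed their direction. Beta-catenin, Ctnnb1, was nearly level at 317 and 341. In the FGF-ERK list, with 17 of 19 genes at the mean, the ligands Fgf4 and Fgf5 differed in opposite directions, and the receptor Fgfr1 was at 38.9 and 60.3 (0.62). The ERK phosphatase Dusp6 was at 25.4 and 69.9 FPKM (1.43), and the feedback inhibitors Spry1, Spry2 and Spry4 lay within -0.08 and 0.24. Limma called Dusp6 higher in the knockout cells (1.19, SE 0.18, adjusted p = 0.0224).

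Genes of the primitive streak, where gastrulation begins, were mostly low in both wild type libraries. Of 17 found, 3 averaged at least 5 FPKM, 2 of them higher past the size limit and 1 lower. The 1 lower was Lefty2, at 154 FPKM with LIF and 35.1 without as given above, of list sums of 165.4 and 80.5. Fgf8, an FGF ligand of the streak, was at 2.21 FPKM with LIF and 19.2 without (2.65), and Eomes, a T-box factor, at 5.12 and 13.6 (1.25). The direction of Fgf8 was fixed, since it reached the mean through the library without LIF. T, or brachyury, was at 0.0426 and 1.81 FPKM, under the mean, and Foxa2 was listed at 0 in both libraries. In the knockout cells T was at 0.199 and 0.711 FPKM with LIF and 4.45 and 13.3 without (limma difference 2.63, SE 0.46, adjusted p = 0.0299). The knockout libraries without LIF thus both lay above the wild type library in T, and the difference of responses did not pass (-1.20, SE 0.79, limma unadjusted p = 0.177).

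Most markers of other lineages were low in both libraries. Among neural genes, 4 of 15 averaged at least 5 FPKM, and 3 of these were higher past the size limit: the intermediate filament Nes at 1.57 and 18.3 FPKM (2.91), the imprinted gene Nnat at 2.39 and 37.3 (3.50) and the SoxC factor Sox11 at 6.78 and 20.8 (1.48). Nes and Nnat reached the mean through the library without LIF, which fixed their direction. The other gene at the mean, the tubulin Tubb3, was the most abundant of the list and nearly level, at 81.3 and 77.1 FPKM (-0.08). In the knockout libraries Tubb3 was at 84.5 and 75.9 FPKM with LIF and 48.4 and 47.5 without. The neural determinants Sox1 and Pax6 did not follow the same direction, with Sox1 at 1.19 and 0.610 FPKM and Pax6 at 5.05 and 4.50. The list summed to 103.7 FPKM with LIF and 167.1 without. Primitive endoderm markers summed to 13.5 and 32.7 FPKM, most of it from the endocytic receptor Lrp2 at 10.8 and 26.4, while Gata6 and Sox17 were under 0.3 FPKM and Afp was listed at 0 in both. Trophoblast markers summed to 47.1 and 26.1 FPKM, and Tfap2c, an AP-2 factor that germ cells and naive cells also use, was at 33.4 and 10.7 of these (-1.55). Of the 12, 7 were higher without LIF, all at low levels, among them Gata3 at 0.0512 and 1.39 FPKM, Hand1 at 0 and 1.33, Cdx2 at 0.121 and 0.995 and Krt7 at 0.463 and 2.05, while 4 were lower and Elf5 was listed at 0 in both. In bulk RNA, fewer cells with a transcript and less transcript per cell cannot be told apart.

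Epithelial and mesenchymal genes went both ways past the size limit. Whatever the mean and the size, 14 of the 21 epithelial genes were higher and 7 lower, and 16 of 20 mesenchymal genes were higher and 4 lower. Of all 25170 gene symbols, counted the same way, 8061 were higher and 8504 lower. Of 21 epithelial genes 18 averaged at least 5 FPKM, 5 were higher past the size limit and 4 lower. The simple keratins were higher, with Krt8 at 8.06 and 35.3 FPKM (2.00), Krt18 at 15.3 and 49.8 (1.64) and Krt19 at 2.77 and 10.8 (1.64). Krt19 was under 5 FPKM with LIF and so had to be higher. The claudins Cldn6 (1.38) and Cldn7 (1.15) were higher and Cldn4 (-0.89) was lower within the limit. The gap junction gene Gjb1, above, was lower, a direction fixed by its value under 5 FPKM without LIF. E-cadherin, Cdh1, was at 177 and 252 FPKM (0.50) and Epcam at 117 and 119.5 (0.03). N-cadherin, Cdh2, stood at 0.541 and 3.59 FPKM, and the transition factor Snai1 at 3.05 and 3.28. The matrix protein fibronectin, Fn1, was lower at 221 and 101 (-1.13), as was the basement membrane protein nidogen, Nid1, at 24.4 and 6.999 (-1.67), and Vim, vimentin, was at 24.4 and 29.5 (0.27). The scavenger receptor Colec12 was the 1 gene of the 9 mesenchymal genes at the mean to be higher past the limit, at 1.87 and 17.4 (2.68). It reached the mean through the library without LIF, which fixed its direction. Limma called Krt8, Krt18, Krt19 and Cldn7 higher in the knockout cells, with differences between 0.95 and 2.33 and adjusted p between 0.0159 and 0.0457. Of the same list it called Gjb1 and the keratin Krt42 lower. These are 4 and 2 of the 18 epithelial genes, against 2.55% and 4.41% of all 8630 genes.

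Cell cycle and splicing genes stayed within the size limit, while genes of glucose use went both ways. None of the 18 cell cycle genes at the mean, of 20 listed, passed the size limit, with a median of -0.13, or -0.03 under quantile normalization. Mki67, a marker of cycling cells, was at 36.1 and 36.8 FPKM, the kinase Cdk1 at 48.7 and 45.3, and the transcription factor E2f1 at 34.3 and 17.96 (-0.90). Of the Myc genes, Myc was at 14.6 and 26.9 (0.84) and Mycn at 75.7 and 100.4 (0.40). All 20 genes of glucose use averaged at least 5 FPKM. Of these the glucose transporter Slc2a1 (174 and 413 FPKM, 1.24) and the lactate transporter Slc16a3 (70.99 and 162, 1.18) were higher past the limit. The lactate dehydrogenase Ldhb (561 and 226, -1.31) and the hexokinase Hk1 (17.8 and 7.76, -1.10) were lower past it. The other dehydrogenase, Ldha, lay on the opposite side of 0 at 1196 and 1778 (0.57). The median of this list, -0.09, turned to 0.06 under quantile normalization, so no direction is given for it. Threonine dehydrogenase, Tdh, which feeds one-carbon metabolism in mouse ESCs, was the 1 gene of 16 in amino acid metabolism past the limit, at 194 and 94.2 (-1.04). None of 16 splicing regulators at the mean passed it, with Hnrnph1, a paralog of Hnrnpf, at 256 and 281 FPKM and Ptbp1 at 322 and 360.1.

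**Figure D3:**
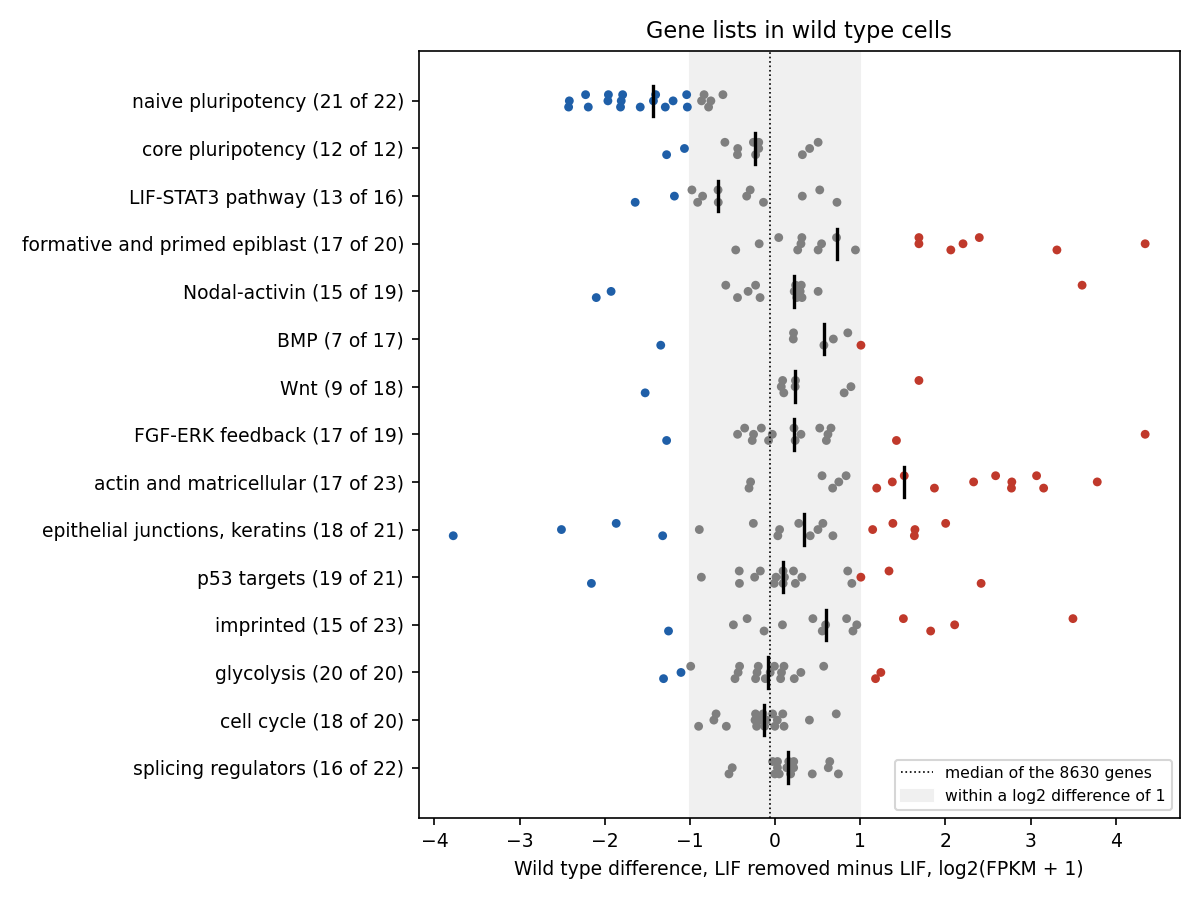
Each point is a listed gene averaging at least 5 FPKM, placed by its wild type difference in log2(FPKM + 1), with list sizes in parentheses, a bar at each list's median and a dotted line at the median of all 8630 genes. Naive genes lie to the left with a median of -1.43, actin and matricellular genes to the right with a median of 1.52, and cell cycle genes inside the shaded band.

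The wild type differences were then set beside the knockout response gene by gene. Of the 187 genes that were higher in wild type cells, limma called 108 higher in the knockout cells (57.8%, against 2.55% of all 8630). It called none lower, and 184 had a difference of the same sign. Of the 346 that were lower, limma called 157 lower (45.4%, against 4.41% of all 8630) and none higher, and 334 had the same sign. These counts moved with single libraries: 35 and 60 without knockout 1 with LIF, and 25 and 60 without knockout 2 after LIF removal. The calls over all 11785 genes also fell in these fits, as given above. Read the other way, 49.1% of the 220 genes called higher in knockout cells and 41.2% of the 381 called lower were past the size limit in wild type cells. The 2 groups of knockout libraries did not overlap in the wild type direction for 166 of the 187 genes (88.8%), against 24.6% of all 8630, and for 303 of the 346 (87.6%), against 34.7%. The median difference of the 187 genes was 1.46 in wild type cells and 1.18 in knockout cells, and that of the 346 was -1.31 and -0.88. The genes were chosen for their size in wild type cells and not in knockout cells, so these medians are given side by side and not compared.

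Exceptions to the shared direction were few and were chosen after their values were seen. Hopx, a homeodomain-only protein, Ndrg1 and Tmem54 were higher in wild type cells and had a knockout difference below 0, of -0.61, -0.08 and -0.11, none of them called. Lsm7, a component of the Lsm ring on RNA, was at 10.5 FPKM with LIF and 2.14 without in wild type cells (-1.88), whereas the knockout libraries had 1.61 and 1.97 with LIF and 3.81 and 6.16 without (limma difference 1.08, SE 0.25, adjusted p = 0.0520). Both knockout libraries with LIF thus had the low values that the wild type library reached without LIF. Gprc5a, an orphan G protein-coupled receptor, had wild type values of 7.77 FPKM with LIF and 2.86 without (-1.18), and in the knockouts stood at 2.51 and 4.28 with LIF and 4.30 and 10.5 without (limma difference 0.86, SE 0.39, adjusted p = 0.207). Terc, the telomerase RNA, was at 8.94 and 2.17 (-1.65), with knockout values of 8.66 and 0.652 with LIF and 2.41 and 12.1 without (limma difference 0.74, SE 0.89, adjusted p = 0.634), so its groups overlapped. Tfap2c was no exception in sign but was called in neither direction, at 16.9 and 21.05 FPKM with LIF and 17.5 and 17.1 without in the knockouts (limma difference -0.12, SE 0.16, adjusted p = 0.686).

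**Figure D4:**
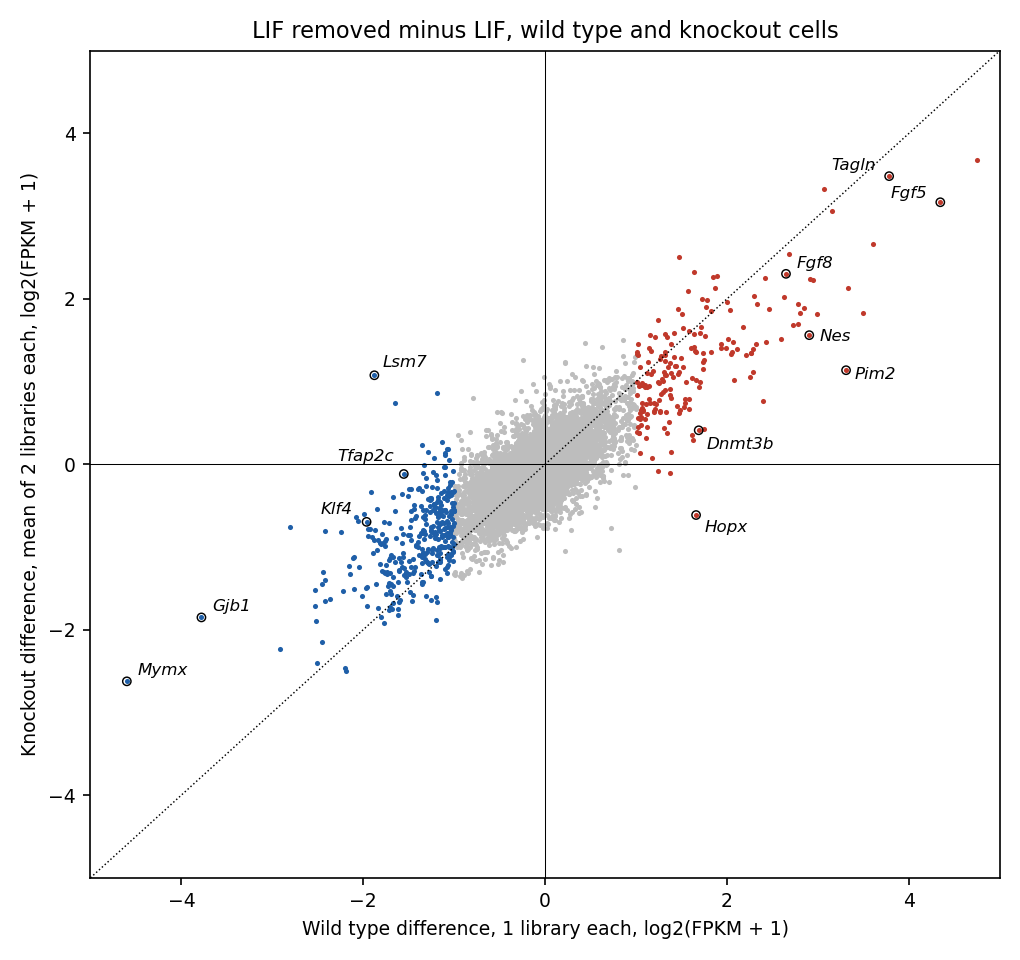
Each point is 1 of 8630 genes, with the wild type difference (LIF removed minus LIF, 1 library each) on the x axis and the knockout difference (mean of 2 libraries each) on the y axis, in log2(FPKM + 1); red and blue mark genes past a wild type difference of 1 and the dotted line marks equal differences. Of the 187 red points 184 lie above 0 on the y axis, and Hopx is among the 3 below.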

How the data were processed

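RNA-seq libraries of 6 mouse ESC samples were compared (total RNA, 150 bp reads per the labels' protocols). The authors deposited 1 table of FPKM, 1 value per gene symbol and library; per the submitters' processing notes STAR, Cufflinks and the build mm10 were used, with versions, parameters and strand handling not given in the sources used here. Values were used as log2(FPKM + 1) without further scaling. Genes averaging at least 5 FPKM over the 2 wild type libraries were described by difference, without a test. The knockout response and the difference of responses were tested with limma 3.58.1 in R 4.3.3 (1 fit of 4 groups, intensity trend, two-sided, Benjamini-Hochberg over 11785 genes averaging at least 1 FPKM over 6 libraries, 2 residual and 4.70 prior degrees of freedom). That fit assumes that the single wild type libraries vary as the knockout libraries do. The fit was tested on simulated data.

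The members and the 33 gene lists (524 of 525 entries found) were chosen with earlier results of these data known. The rule for named genes took the 15 largest differences each way, a panel of lineage genes, up to 4 genes of each list in each direction, list members near 0, the 5 lowest p for the difference of responses and genes at the limits; some further list members were named after their values were seen, and a few genes the rule took are not reported here. Gene positions and promoter windows are from RefSeq (GRCm38.p6). Alternatives were a pseudocount of 0.1, other filters, median ratio and quantile scaling, limma without its trend, a replicate block and leaving out each knockout library. Leaving out a wild type library leaves no comparison.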

Additional observations from a re-analysis of the deposited data

How the results depend on the processing

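Genes past the size limit in wild type cells numbered 631 with a pseudocount of 0.1, 525 with median ratio scaling and 499 with quantile normalization, against 533. Of these 35.1% were higher, and 44.3% with quantile normalization. They numbered 973 with a mean of at least 1 FPKM and 1071 without a filter on low values, where more genes are counted. All 533 were among those of the pseudocount and both filters, 522 remained with median ratio scaling and 465 with quantile normalization. The median over all genes was -0.06 with median ratio scaling and 0.03 with quantile normalization.

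LIF removal in knockout cells gave 816 calls and between 583 and 818 with the pseudocount, the filter at 5 FPKM, both scalings, no trend or the knockout libraries fitted alone. Of the 421 named genes tested, limma called 117 in the fit that gave 816 calls. Without a filter on low values limma gave 0 calls (3847 genes at an unadjusted p under 0.05), so all 117 lost the call. The cause was not tested. Losses of the call among named genes in the fits that follow are thus out of these 117. Leaving out 1 knockout library gave between 124 and 539 calls, with fewer samples in the fit, and took the call from between 36 and 83 of the 421 named genes tested. A fit with the knockout number as a replicate block gave 2621 calls, among them 15 of the 15 largest increases and 15 of the 15 largest decreases, 168 of the 187 higher and 271 of the 346 lower genes, and 18 of 21 naive genes, with 2 of the 346 called the other way. Rhox5, whose knockout groups overlap, differed by -1.60 within number 1 and -1.30 within number 2. The labels give the knockouts only a number, and the deviations of same-numbered libraries correlated at 0.366 across 11785 genes, which are not replicates. The difference of responses gave between 0 and 1 calls when 1 knockout library was left out, the call being Snora81 without knockout 1 with LIF (limma adjusted p = 0.000187), and 0 under each other alternative, the replicate block included.

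Depth is unknown, no counting error can be given, and without a second wild type library no wild type difference can be set against replicate error.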

Other observations

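Genes of antigen presentation and the interferon response split by type. Of 18 listed, 10 averaged at least 5 FPKM, 3 were higher past a log2 difference of 1 and 1 lower. The MHC class I light chain B2m was at 29.4 FPKM with LIF and 66.7 without (1.15), the heavy chain H2-K1 at 21.8 and 43.8 (0.98), and the transcription factor Irf1, which drives such genes, at 15.9 and 42.5 (1.37). The immunity-related GTPase Irgm1 was at 1.27 and 9.90 (2.27), and it reached the mean through the library without LIF, which fixed its direction. The interferon-induced membrane proteins, abundant with LIF, were lower, with Ifitm1 at 848 and 364 FPKM (-1.22) and Ifitm2 at 799 and 402 (-0.99). Limma called B2m (1.56, SE 0.13, adjusted p = 0.0111) and Irgm1 (1.35, SE 0.21, adjusted p = 0.0246) higher in the knockout cells and Ifitm2 lower (-0.80, SE 0.11, adjusted p = 0.0213).

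Imprinted genes, expressed from 1 parental allele, were more often higher than lower without LIF. Of 23 listed, 17 were higher and 6 lower, whatever the size. At the mean of at least 5 FPKM were 15, 4 of them higher past the limit and 1 lower, with a median of 0.59, or 0.66 under quantile normalization. Limma called 8 of the 15 higher and none lower in the knockout cells, against 2.55% of all 8630 genes called higher. The placental gene Peg10 was at 52.2 FPKM with LIF and 188 without (1.83), the growth regulator Grb10 at 57.3 and 165 (1.51), and the noncoding RNA H19 at 3.97 and 20.4 (2.11). H19 and Nnat, given above, were under 5 FPKM with LIF, which fixed their direction. Phlda2, which limits placental growth, was at 153 and 63.8 (-1.25). The noncoding RNAs Meg3 and Rian of the Dlk1 locus were within the size limit in wild type cells (-0.49 and -0.13). Rian was at 83.4 and 97.8 FPKM with LIF and 180.0 and 175 without in the knockout libraries, against 14.8 and 13.4 in wild type cells, and its difference of responses was -1.10 (SE 0.24, limma unadjusted p = 0.00271, not past the adjusted threshold). Among p53 targets, 19 of 21 averaged at least 5 FPKM, 3 were higher past the limit and 1 lower. The desmosome-associated protein Perp was at 6.74 and 40.4 (2.42) and the secreted factor Gdf15 at 40.1 and 8.21 (-2.16), while the cell cycle inhibitor Cdkn1a was nearly level at 38.5 and 41.7.

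The 5 lowest p for the difference of responses belonged to H4c8, Lsm7, Mymx, 1700019A02Rik and Dynlt1f, with differences on the log2(FPKM + 1) scale of 3.30, -2.95, -1.98, 2.82 and -2.46 (limma unadjusted p between 0.000159 and 0.000622), and none passed after adjustment. Of these, the replication-dependent histone gene H4c8 was listed at 0 FPKM in LIF-grown wild type cells and in both knockout libraries without LIF, and at 2.65 in wild type cells without LIF.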
